A study of Mus musculus with 6 samples.

Results

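Asns, Aldh18a1, Pycr1, Prodh, Cth and Cbs encode enzymes that make asparagine, make and break down proline, and convert homocysteine to cysteine. All 6 genes were found by symbol among the 23420 genes of the deposited table. They were measured by poly(A) RNA sequencing of the humerus at postnatal day 6, in 3 libraries from Tfam cKO mice and 3 from control mice, all on the C57BL/6 strain. In Tfam cKO mice Tfam, whose product packages mitochondrial DNA and helps start its transcription, is deleted with Prx1-Cre. This driver acts in limb mesenchyme, the source of the cells that build cartilage and bone; blood cells do not descend from it. The labels give neither the alleles of the control mice nor whether each library came from its own animal, so p-values measure the spread between these libraries. RNA came from bones whose marrow had been removed by flushing.

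Asparagine synthetase, the product of Asns, transfers nitrogen from glutamine to aspartate. Proline is made from glutamate. The Aldh18a1 product, P5C synthase, makes pyrroline-5-carboxylate, and reductases such as that of Pycr1 turn it into proline. The Prodh product, proline dehydrogenase, starts the way back. In transsulfuration, the Cbs product joins homocysteine and serine to cystathionine, and the Cth product, cystathionine gamma-lyase, splits cystathionine to release cysteine. Asns, Aldh18a1, Pycr1 and Cth are known targets of Atf4, the transcription factor of the integrated stress response, and bone matrix collagen is rich in proline.

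Each library held 1441152 to 1714770 reads assigned to genes. Tfam was lower in Tfam cKO, at 28.1, 46.1 and 47.6 normalized reads against 61.3, 72.1 and 78.6 in controls (log2 fold change -0.81 ± 0.21 SE, limma adjusted p = 0.0246). That call ended without Tfam cKO replicate 1 (adjusted p = 0.0755), Control replicate 2 (0.0687) or Control replicate 3 (0.107), and with DESeq2 (0.0553). Levels of cell type markers differed too. Summed marker levels in normalized reads were lower in every Tfam cKO library than in any control library for osteoblasts (8 genes, 74824 to 84894 against 143763 to 179175), the B lineage (8 genes, 114 to 209.9 against 615 to 869.9) and adipocytes (6 genes, 150.2 to 217 against 272 to 375). They were higher for chondrocytes (7 genes, 1251 to 2606 against 506 to 687), osteoclasts (6 genes, 14947 to 19067 against 12226 to 13574) and macrophages (6 of 7 listed genes, 1360.1 to 1603 against 1102 to 1217). The sums overlapped for erythroid cells (4 of 8 genes, Hba-a1 at 0, 1171 to 1819.7 against 1494 to 2085), neutrophils (8 genes, 6148 to 9488 against 9001 to 11481), endothelium (7 genes, 1135 to 1233 against 1153 to 1216) and skeletal muscle (7 genes, 1085 to 9333 against 1023 to 6394). Single markers did not always follow their sum. Of the osteoblast genes, Col1a1, Col1a2, Bglap and Bglap2 were called lower and Ibsp and Alpl higher. Of the macrophage genes, C1qa, C1qb, C1qc and Cd68 were called higher and Mrc1 lower. Only Mmp9 of the osteoclast genes was called, higher, and of the chondrocyte genes Col9a1, Col10a1 and Comp, also higher. All 8 B lineage genes and the adipocyte genes Adipoq, Fabp4 and Cfd were called lower. Under sums that overlapped, the neutrophil genes Ngp, Ltf and S100a8 and the erythroid gene Klf1 were called lower. The endothelial gene Emcn was called higher and Flt4 lower. The part of these differences in the enzyme results was not tested. In RNA from the mixed cells of flushed bones, fewer cells of a type and less RNA per cell cannot be told apart.

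Of the 6 enzyme genes, 3 rose in Tfam cKO bone, Asns, Aldh18a1 and Cth, and 0 fell. Pycr1 and Prodh did not pass, and Cbs had no read in any library and could not be tested. Among all 14438 genes tested, 12.4% were called, 6.42% higher and 6.01% lower (limma, adjusted p under 0.05). The same 3 members were higher and 0 lower by edgeR, DESeq2 and the q-values of the authors' deposited table. The shares of genes called higher and lower were 6.47% and 5.76% of 14438 by edgeR and 4.65% and 4.16% of 13038 by DESeq2. By the q-values they were 3.39% and 3.23% of all 23420 genes, which include those without a read. In 4 of the 6, Asns, Aldh18a1, Pycr1 and Cth, every Tfam cKO library lay above every control library, as it did for 16.6% of the genes tested; 0 lay wholly below, against 15.4%. Of these 4, Cth reached the minimum of 1 normalized read on average only through the Tfam cKO libraries, so its place among the tested genes depends on its rise.

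**Figure D1:**
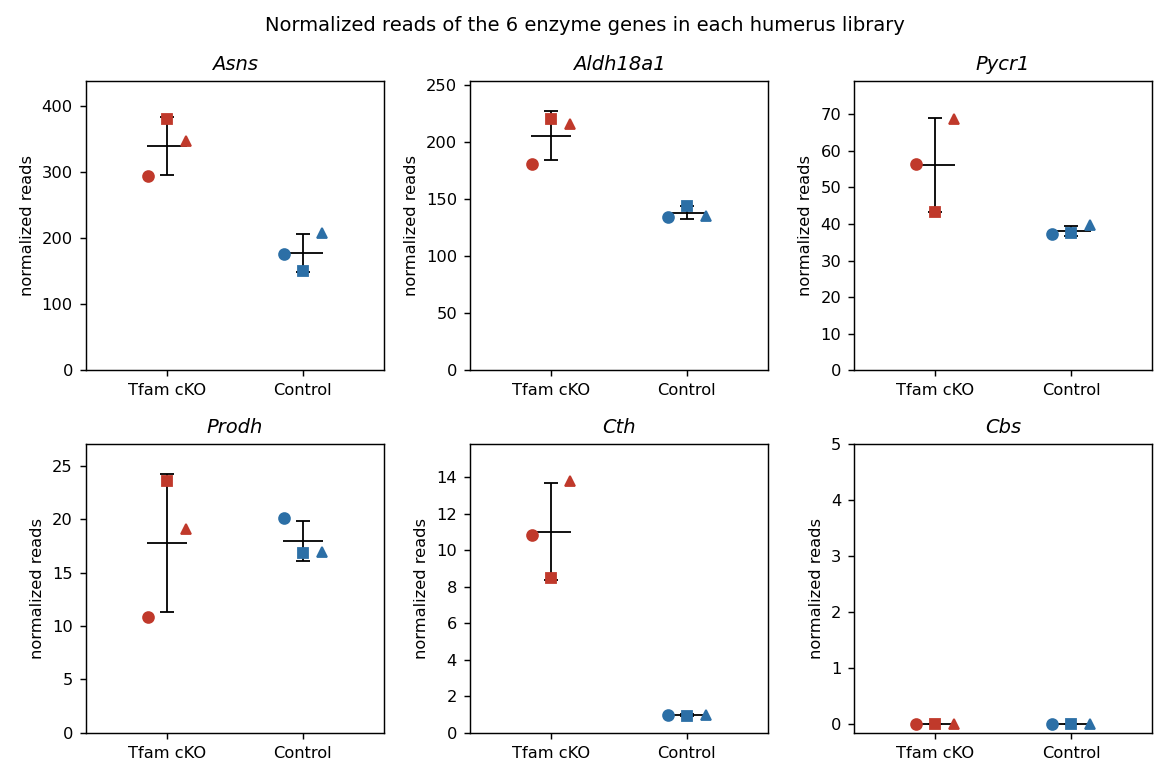
Normalized reads of Asns, Aldh18a1, Pycr1, Prodh, Cth and Cbs (y axis, each panel on its own scale) in the 3 Tfam cKO libraries (left, red) and the 3 control libraries (right, blue). Circles, squares and triangles are replicates 1, 2 and 3, and black lines give the mean and SD; the groups are apart for Asns, Aldh18a1, Pycr1 and Cth, overlap for Prodh and are at 0 for Cbs.

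The promoters of 2 enzyme genes hold the letters TGATGNAA, the core of the element through which Atf4 and its partners are known to act on Asns. The search covered both strands of RefSeq windows (GRCm38.p6) reaching from 250 bases before to 50 after each start site. Of the 5 members with a window, Asns and Pycr1 held a match and Aldh18a1, Prodh and Cbs did not; Cth has no entry in the table. Among all 27025 gene symbols with a window, 4.51% held one in at least 1 window (3.97% of 32851 windows). Matches also lay before the RefSeq start sites of Got1, Slc7a11 and Chac1, genes of neighbouring steps described below that were higher in Tfam cKO. Another lay before that of Sqrdl, a sulfide oxidation gene that did not pass (log2 fold change 0.15, limma adjusted p = 0.647). Of the other neighbouring genes called, Ahcyl1 (higher) and Gclm (lower) held no match. Arg1 and Cdo1 (higher) and Gclc (lower) have no window. In all, 4 of the 34 neighbouring genes with a window held a match. The following 30-base stretches are read on the strand of each gene, with the matches in capitals, to show how like they are; TTGCATCA and TTTCATCA are TGATGCAA and TGATGAAA on the other strand.
Asns, chr6:7693214-7693243, minus strand: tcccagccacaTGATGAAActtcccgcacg
Pycr1, chr11:120643833-120643862, minus strand: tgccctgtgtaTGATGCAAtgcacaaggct
Got1, chr19:43524689-43524718, minus strand: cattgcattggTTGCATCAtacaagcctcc
Slc7a11, chr3:50443651-50443680, minus strand: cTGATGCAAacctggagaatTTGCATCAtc
Chac1, chr2:119351038-119351067, plus strand: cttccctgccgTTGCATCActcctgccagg
Sqrdl, chr2:122771559-122771588, plus strand: cagtttttcctTTTCATCAtttctctgtgc
The Asns match begins 50 bases before the gene's 5′ end in the deposited table and 23 before the RefSeq start site, and an exon of another annotated transcript (GENCODE) covers it. The matches of Pycr1, Got1, Chac1 and Sqrdl begin 103, 102, 193 and 143 bases before the RefSeq start sites, and the pair of Slc7a11 begins at 66. Against the 5′ ends in the deposited table, the Pycr1 match begins 181 bases before. The Sqrdl match begins 6211 bases after, inside the span of that gene. A match of letters is a description and does not show that a factor is bound.

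Asns had the highest level of the 6. It lies on chromosome 6 at 7675171 to 7693182 (mm10, minus strand, 12 exon blocks). It had 293, 380.3 and 346 normalized reads in Tfam cKO libraries, against 176, 149.9 and 207 in controls. The lowest Tfam cKO library lay well above the highest control library. The means were 339.9 ± 43.9 in Tfam cKO and 178 ± 28.6 in controls (SD, n = 3 each), a log2 fold change of 0.94 ± 0.14 (SE, 95% interval 0.64 to 1.23, limma adjusted p = 9.82e-04). The call held without any 1 library, with log2 fold changes from 0.82 to 1.05. By log2 fold change, counted from the highest, it ranked 663 of the 14438 genes tested.

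Aldh18a1, on chromosome 19 at 40550257 to 40588463 (minus strand, 19 exon blocks), rose by a smaller step. Its normalized reads were 181, 220.3 and 216 in Tfam cKO libraries and 135, 144 and 135 in controls, so that the groups did not overlap. The mean was 206 ± 21.7 in Tfam cKO and 138 ± 5.39 in controls. The control SD was 3.90% of the mean, where counting error alone gives 8.41% for the reads of 1 such library. These controls thus lay closer together than their counts can show. The log2 fold change was 0.57 ± 0.12 (SE, 95% interval 0.32 to 0.82, limma adjusted p = 0.00719). The call held without any 1 library, at adjusted p from 0.00687 to 0.0385.

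Pycr1, the next step, leaned the same way without passing the threshold. It lies on chromosome 11 at 120635712 to 120643670 (minus strand, 8 exon blocks). It had 56.3, 43.3 and 68.8 normalized reads in Tfam cKO libraries, against 37.2, 37.5 and 39.8 in controls. The Tfam cKO libraries were all higher, but replicate 2 only just, and they were spread more widely, at 56.1 ± 12.7 in Tfam cKO against 38.1 ± 1.43 in controls (SD, n = 3 each). The control SD was 3.76% of the mean, where counting error alone gives 16.0% for the reads of 1 such library, so the controls lay closer together than their counts can show. The log2 fold change was 0.52 ± 0.19 (SE, 95% interval 0.10 to 0.94, limma adjusted p = 0.102). It passed only without Tfam cKO replicate 2 (0.69, adjusted p = 0.0390), and edgeR and DESeq2 gave adjusted p = 0.0854 and 0.323.

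Pycrl encodes a cytosolic reductase for the same step as Pycr1. In RPKM, reads scaled to exon length and library size, Pycrl stood at 15.2 ± 1.07 in Tfam cKO and 14.2 ± 0.798 in controls. Pycr1 stood at 12.3 ± 2.69 in Tfam cKO and 8.33 ± 0.563 in controls. Pycrl did not pass (log2 fold change 0.08, 95% interval -0.35 to 0.51, limma adjusted p = 0.833).

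Prodh, the gene of proline breakdown, did not separate the groups. It lies on chromosome 16 at 18071726 to 18089190 (minus strand, 14 exon blocks). Normalized reads were 10.8, 23.5 and 19.0 in Tfam cKO libraries and 20.1, 16.9 and 16.9 in controls. The Tfam cKO values lay on both sides of the control values. The log2 fold change was -0.07 (95% interval -0.74 to 0.60, limma adjusted p = 0.910), an interval wide enough to hold the 0.57 of Aldh18a1; Prodh had 10 to 25 reads in a library. Its sign turned with edgeR (0.0068) and without Tfam cKO replicate 1 (0.23) or Control replicate 1 (0.0077). The ratio of Pycr1 to Prodh was 5.20, 1.84 and 3.61 in Tfam cKO libraries and 1.85, 2.22 and 2.35 in controls, and the groups overlapped (log2 difference 0.59, exact two-sided permutation p = 0.4, where 3 against 3 libraries allow no p below 0.1).

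Cth had the largest relative rise of the 6 genes, on very few reads. It lies on chromosome 3 at 157894248 to 157925063 (minus strand, 12 exon blocks). The Tfam cKO libraries held 10, 9 and 13 reads, and each control library held 1. In normalized reads these are 10.8, 8.47 and 13.8 in Tfam cKO and 1.004, 0.937 and 0.995 in controls. The sums of 32 reads in Tfam cKO and 3 in controls differ 11.2-fold after division by the authors' size factors (3.49 to 57.0, 95% exact binomial limits for counting error). limma gave a log2 fold change of 2.58 ± 0.43 (SE, adjusted p = 0.00220), which ranked 26 of the 14438 genes. With pseudocounts of 5 and 0.1 in place of 1 it was 1.41 and 3.34, and edgeR and DESeq2, fitted to the reads, gave 3.33 (adjusted p = 0.00254) and 3.49 (adjusted p = 0.0173). The call held in all of these and without any 1 library. Equal counts of 1 understate the control error, and Poisson limits on the 3 control reads run from 0.619 to 8.77.

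Cbs, on chromosome 17 at 31612623 to 31637205 (minus strand, 17 exon blocks), had 0 of 4563189 reads in Tfam cKO and 0 of 4828081 in controls. Counts of 0 allow up to 0.657 RPM (reads scaled to library size) in Tfam cKO and 0.621 RPM in controls. None of its exon bases, nor those of the other 5 members, are shared with another gene of the table. Of 23420 genes, 6413 had no read in any library, among them Hba-a1, whose reads are hard to tell from those of a twin gene. The ratio of Cth to Cbs could not be formed. The hepatocyte markers Alb, Ttr and Fgb were at 0 as well, and the 5 listed hepatocyte genes in the table summed to at most 1.06 normalized reads in a Tfam cKO library and 0.995 in a control library.

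Set side by side in RPKM, the levels ran over a wide range. In Tfam cKO bone the order was Asns (113 ± 15.2), Aldh18a1 (37.4 ± 4.05), Pycr1 (12.3 ± 2.69), Prodh (5.01 ± 1.84), Cth (3.92 ± 0.907) and Cbs (0). In control bone it was Asns (58.8 ± 11.2), Aldh18a1 (24.9 ± 0.805), Pycr1 (8.33 ± 0.563), Prodh (4.999 ± 0.477), Cth (0.346 ± 0.020) and Cbs (0). Neighbours in this order did not overlap between libraries in either group, except that Prodh (3.04 to 6.69) and Cth (3.05 to 4.86) overlapped in Tfam cKO. In controls Cth, at 1 read a library, was not resolved from Cbs, for which a count of 0 allows up to 0.784 RPKM in a control library.

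Genes of neighbouring steps were counted in 4 lists, whose 46 genes include 40 tested, of which 6 rose and 2 fell, where 6.42% of all genes tested were called higher and 6.01% lower. The counts of each list are to be read against the same shares. Their median log2 fold change was 0.06, against 0.01 for all genes tested. Around asparagine, 1 of 9 tested genes rose. This was Got1, the cytosolic aspartate aminotransferase, with 101.7, 101.7 and 97.3 normalized reads in Tfam cKO against 47.2, 65.6 and 42.8 in controls (log2 fold change 0.96 ± 0.17 SE, limma adjusted p = 0.00308). The other 8 ran from -0.52 to 0.67, among them Glul, glutamine synthetase, the most abundant (-0.18, adjusted p = 0.310), and Got2, the mitochondrial aminotransferase (0.24, adjusted p = 0.165). Ass1 had no read, and since it shares 1552 of 1631 exon bases with Gm5424, its level cannot be read from the table.

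Around proline and ornithine, 1 of 9 tested genes rose. Arg1, an arginase that makes ornithine, had 11.9, 3.77 and 2.12 normalized reads in Tfam cKO and 0 in every control library. The 17 reads of the Tfam cKO group would put it 5.93-fold higher if the whole control group held 3 reads, the floor taken for 0. That value takes the 17 reads as exact, though their 95% Poisson limits run from 9.90 to 27.2, so it is not a lower limit. Of the 17 reads, 11 came from Tfam cKO replicate 1, and without it the value was 3.06-fold on the same terms. The call (limma adjusted p = 0.0190) ended without Tfam cKO replicate 1 (0.101), Control replicate 1 (0.0596) or Control replicate 3 (0.0551). DESeq2 gave Arg1 no adjusted p, and a filter at a mean of at least 5 left it untested. Like Cth, Arg1 was tested only through its Tfam cKO reads. Oat, which makes pyrroline-5-carboxylate from ornithine, stood at 234 ± 18.5 in Tfam cKO and 225 ± 15.8 in controls (0.06, 95% interval -0.18 to 0.29, adjusted p = 0.784). Odc1, the ornithine decarboxylase and the most abundant of the list, did not pass either (-0.11, adjusted p = 0.577). Glud1, which links glutamate to the citric acid cycle, missed the threshold (0.35, adjusted p = 0.0594). Prodh2, a relative of Prodh, had no read.

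In the methionine cycle, which supplies homocysteine, 1 of 7 tested genes rose. Ahcyl1, a relative of the homocysteine-forming hydrolase that is known as a regulator of calcium channels and not for that reaction, had 362, 369 and 523 normalized reads in Tfam cKO against 224, 234 and 248.7 in controls (0.80 ± 0.14 SE, limma adjusted p = 0.00237). The hydrolase gene Ahcy itself did not pass (-0.34, adjusted p = 0.0850), nor did Mat2a, an S-adenosylmethionine synthetase (0.08, adjusted p = 0.659). The 4 untested genes were Mat1a, Bhmt and Bhmt2, with no read, and Gnmt, with 3 reads in Tfam cKO and 2 in controls. Mat1a, Bhmt and Gnmt are known chiefly from the liver.

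Among 16 genes of cysteine supply and use and of sulfide oxidation, 4 rose and 2 fell, beside 6.42% and 6.01% of all genes tested. Slc7a11, the cystine importer, had 17.3, 13.2 and 20.1 normalized reads in Tfam cKO and 3.01, 5.62 and 3.98 in controls (1.79 ± 0.36 SE, limma adjusted p = 0.00668). Chac1, which breaks down glutathione, had 31.4, 30.1 and 52.9 in Tfam cKO and 3.01, 7.49 and 4.97 in controls (2.69 ± 0.36, adjusted p = 6.07e-04). In both, as in Cth, no Tfam cKO library reached down to a control value, which held for 16.6% of all genes tested. Gclc and Gclm, the subunits of the ligase that commits cysteine to glutathione, fell, Gclc to 101.2 ± 15.1 in Tfam cKO, against 165 ± 17.3 in controls (-0.70 ± 0.14, adjusted p = 0.00561), and Gclm to 131 ± 21.0 in Tfam cKO, against 193 ± 38.4 in controls (-0.56 ± 0.16, adjusted p = 0.0365). Got1, which also works on cysteine sulfinate, and Cdo1, the cysteine dioxygenase (0.54 ± 0.15, adjusted p = 0.0350), made up the 4 that rose. The Gclm call held only without Tfam cKO replicate 2 or Control replicate 3, and that of Cdo1 only without Tfam cKO replicate 1 or Control replicate 2, when 1 library was left out, and that of Cdo1 ended with DESeq2 (0.109) and had q = 0.0606 in the authors' deposited table.

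**Figure D2:**
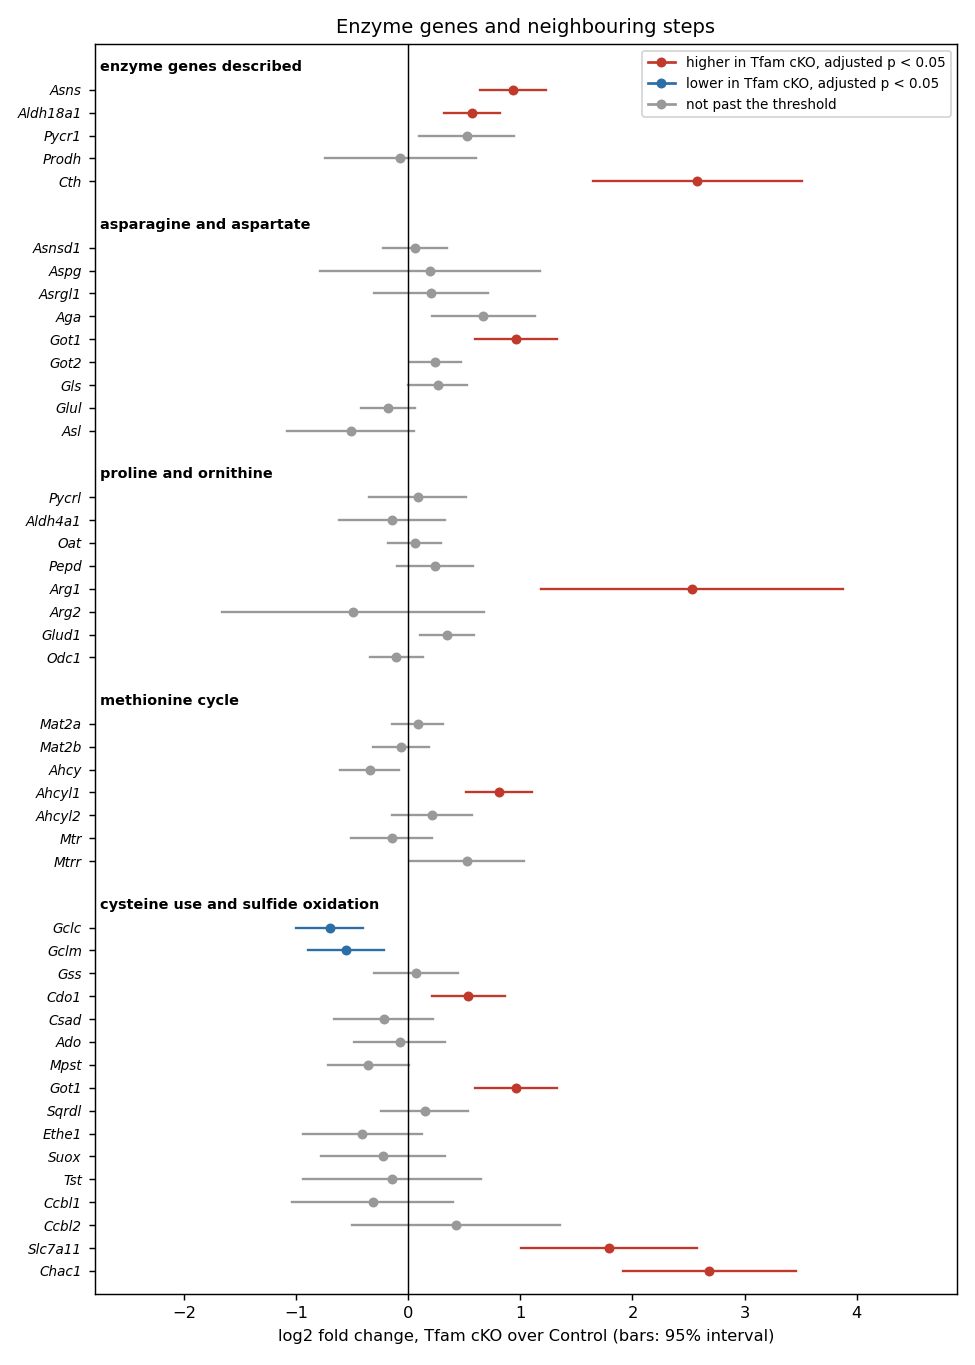
Log2 fold change of Tfam cKO over Control (x axis, points) with 95% intervals (bars) for the 5 tested enzyme genes and tested genes from the 4 lists of neighbouring steps. Red and blue mark genes called higher and lower; Cth (2.58), Chac1 (2.69), Arg1 (2.53) and Slc7a11 (1.79) lie farthest to the right, and Gclc (-0.70) and Gclm (-0.56) are the ones called lower.

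The genes most like each enzyme gene over the 6 libraries were sought among 9689 genes with at least 20 normalized reads on average, by the root mean square difference of log2 values centred on each gene's mean. For Asns these were C1qb, a complement gene of macrophages (0.092), Ptges2, a prostaglandin E synthase (0.104), and Wrb, a receptor for tail-anchored membrane proteins (0.114). The summed macrophage markers, of which C1qb is one, were higher in Tfam cKO, as given above. For Aldh18a1 they included Eif2s2, a subunit of the translation initiation factor eIF2 (0.041), and the aminopeptidase gene Lap3 (0.054). For Pycr1 they were the arylsulfatase gene Arsa (0.066), Hax1, a mitochondrial survival protein (0.078), and Abi2, a regulator of actin (0.081), and for Prodh Plek2 (0.106), Dcaf4 (0.107) and Brms1 (0.112). For Cth they were the cyclin gene Ccnd1 (0.157), the stress transcription factor gene Atf5 (0.180) and Tenm4 (0.182). Ccnd1 had 491, 458 and 636 normalized reads in Tfam cKO and 88.4, 111 and 85.5 in controls, and Atf5 had 427, 398 and 410.5 in Tfam cKO against 70.3, 71.2 and 65.6 in controls. By this measure genes with a like difference between the groups come out as alike. For Cth the match depends on the pseudocount of 1, the only one used in this search. With pseudocounts of 5 and 0.1 the log2 fold change of Cth was 1.41 and 3.34, against 2.49 and 2.58 for Atf5 and 2.41 and 2.47 for Ccnd1.

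**Figure D3:**
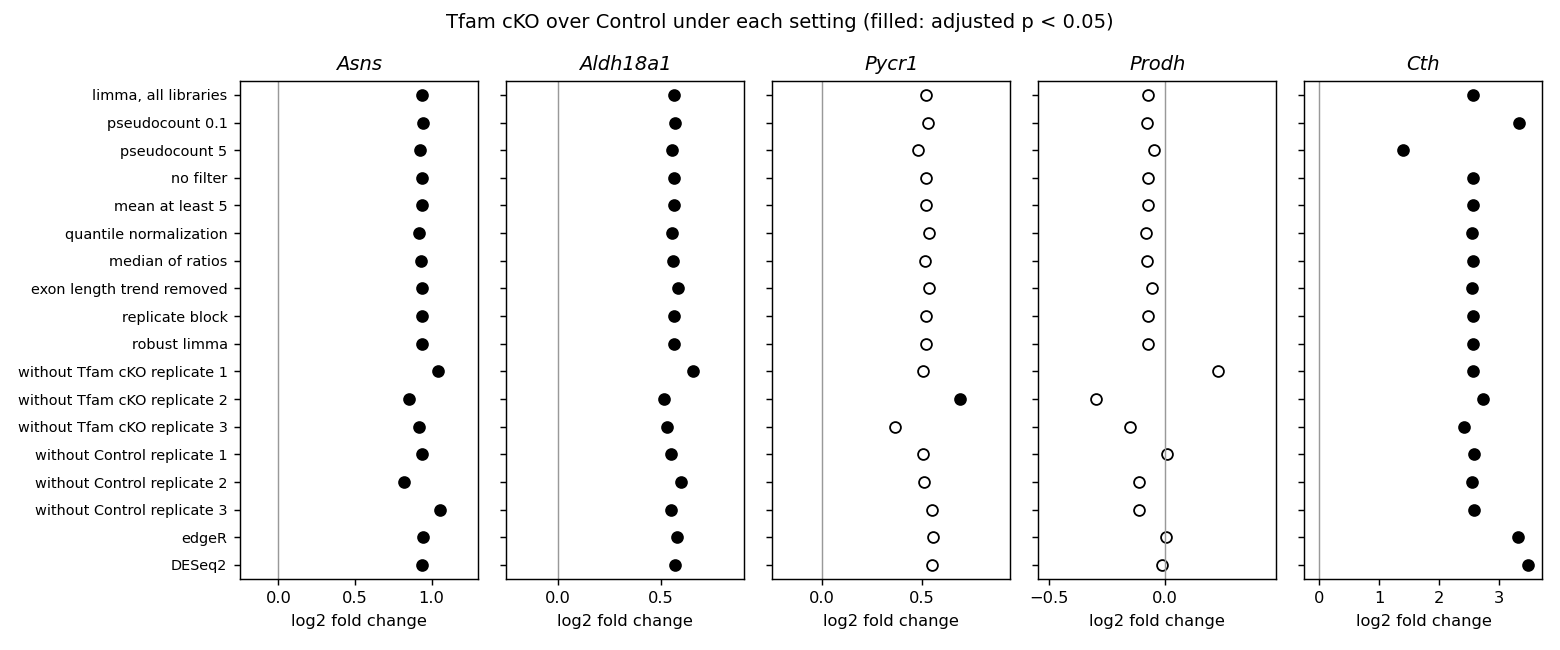
Log2 fold change of Tfam cKO over Control (x axis) for the 5 tested enzyme genes under limma with all libraries and each refitted alternative (rows). Filled points have an adjusted p under 0.05; Asns, Aldh18a1 and Cth are filled in every row, Pycr1 only without Tfam cKO replicate 2, Prodh in none, and its points lie on both sides of 0.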

How the data were processed

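TopHat, Cufflinks and mm10 appear in the submitters' processing notes, without versions or roles. For counter, strand setting and size factors nothing is stated in the sources used here. Per the file headers, the deposited table holds exon blocks, exon length, 1 value per library, p-values and q-values for each gene. The deposited library values are a signal that the authors made, as the values show, by dividing each read count by 1 size factor per library; they are called normalized reads. Every value came out as a whole number of reads within 0.001, so reads were recovered; in Control replicates 1 and 3 the step is so near 1 that this is a weaker sign.

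limma 3.58.1 (R 4.3.3) compared the genotypes on log2(normalized reads + 1) over all 6 libraries, with its trend option, for 14438 genes with a mean of at least 1. On that scale the fold changes of genes with few reads come out too small. P-values were adjusted over all genes tested (Benjamini-Hochberg, threshold 0.05). edgeR 4.0.16 and DESeq2 1.42.0 were fitted to the recovered reads as alternatives. Counting error is all that intervals and floors from reads cover. Ratios of single genes were tested by exact permutation over 20 arrangements. The limma and edgeR fits were also run on simulated counts, and DESeq2 was not. Genes with as few reads as Cth or Arg1 were left unchanged there, so the recovery of such genes was not tested.

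The members, the lists of neighbouring steps and the cell type markers were chosen with earlier results of these data known. Named are the members, Tfam, from each list the genes past the threshold and the most abundant one, and the 3 genes nearest in pattern to each tested member. Some genes and a ratio that this would name are not reported here, though counts over lists include them. Pycrl, Oat, Got2, Glud1, Ahcy, Sqrdl and the untested genes were named after their values were seen.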

Additional observations from a re-analysis of the deposited data

How the results depend on the processing

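The calls of Asns, Aldh18a1 and Cth and their direction held under all 18 alternatives, among them edgeR, DESeq2, the q-values of the authors' deposited table (5.06e-06, 0.00760 and 7.26e-05), other pseudocounts and filters, quantile normalization and the removal of each library's trend with exon length. The members called higher numbered 3, or 4 without Tfam cKO replicate 2, and those called lower 0. Leaving out 1 library at a time gave 893 to 1818 genes called in all, against 1795 (893 with Control replicate 1 left out, 1070.0 with Tfam cKO replicate 3, 1113 with Control replicate 3 and 1155 with Tfam cKO replicate 1), and DESeq2 called 1149. It also gave log2 fold changes of -0.94 to -0.57 for Tfam, 0.36 to 0.69 for Pycr1, -0.30 to 0.23 for Prodh, -0.31 to 0.25 for Plek2, -0.32 to 0.14 for Dcaf4 and -0.32 to 0.095 for Brms1, none of the last 4 called. With edgeR, Prodh was at 0.0068 and Plek2 at 0.014, and with DESeq2 Tfam was at -0.80 and not called. Genes of neighbouring steps called higher numbered 4 to 7, and those called lower 1 or 2, with 1 library left out. The cause of these changes was not tested. Libraries with the same number did not deviate together (correlations of -0.23, 0.01 and 0.09), so the numbers were not taken as pairs. With the replicate number as a block, 1290.0 genes were called, Asns, Aldh18a1 and Cth among them (adjusted p = 0.00655, 0.0203 and 0.0112), and neighbouring genes called lower numbered 1; Gclm and Cdo1 were not called (adjusted p = 0.0860 and 0.0572). The ratio of Cth to Cbs was not run, since Cbs had no read.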
